A study of Arabidopsis thaliana with 18 samples.

Results

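Among the miRNA sequences of Arabidopsis rosette leaves, 144 of the 476 distinct sequences in the authors' deposited abundance table were 18 or 19 nt long, 58 of them 18 nt and 86 of them 19 nt. They were chosen by length alone, each sequence was counted once, and the 332 other sequences had 20 nt or more. They fell into 48 of the 101 miRNA families of the table. Plants of the wild type Col-0, around 5 to 6 weeks old, gave 3 libraries per group in 6 groups. Leaves were untreated, mock treated, or sprayed with 1000000 spores per ml of the fungus Alternaria brassicicola in 0.01% Silwet L 77, and the Alternaria leaves were taken 3 days after inoculation. The labels give no harvest day for the other treatments and do not say what the mock spray held. Small RNA came either from total RNA or from RNA that was co-immunoprecipitated with ARGONAUTE1 (AGO1) and eluted with its peptide. Each library was sequenced in 2 runs, which were summed.

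Plant miRNAs are cut as duplexes from hairpin transcripts by DICER-LIKE1, most often at a length of 21 nt, and the duplex ends are methylated by HEN1, which protects the 3′ end from trimming. AGO1 is the main carrier of miRNAs and prefers a 5′ uridine, written as T in the deposited sequences. Loss of bases from the 3′ end leaves the 5′ base and the seed (bases 2 to 8) in place, whereas loss of bases from the 5′ end shifts the seed and can change the 5′ base.

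The sequences on which the results turn are printed first as the longer sequence that holds each short form, 5′ to 3′, with the bases that the short form lacks in capitals. The first 5 forms belong to miR158, from the genes MIR158a and MIR158b, and show shortening at either end. Both miR158 forms without 5′ bases also occur in the MIR158b sequence and matched both genes, so their source is ambiguous; their missing bases are marked against the more abundant MIR158a sequence.
miR158 19 nt, 3′ base missing: tcccaaatgtagacaaagcA
miR158 18 nt, 3′ bases missing: tcccaaatgtagacaaagCA
miR158 19 nt, 5′ base missing: Tcccaaatgtagacaaagca
miR158 18 nt, 5′ bases missing: TCccaaatgtagacaaagca
miR158 19 nt from the MIR158b locus, 3′ base missing: ccccaaatgtagacaaagcA
miR8175 19 nt, 5′ base missing: Gatccccggcaacggcgcca
miR8175 18 nt, 5′ bases missing: GAtccccggcaacggcgcca
miR166 19 nt, 3′ bases missing: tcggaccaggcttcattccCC
miR398 19 nt, 3′ bases missing: tgtgttctcaggtcaccccTG
miR160 19 nt, 3′ bases missing: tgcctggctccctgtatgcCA
miR163 19 nt, 3′ bases missing: ttgaagaggacttggaactTCGAT
miR408 18 nt, both ends missing: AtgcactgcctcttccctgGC
miR396 18 nt, 5′ bases missing: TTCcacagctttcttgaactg
miR168 19 nt, 5′ bases missing: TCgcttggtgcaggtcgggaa
miR390 18 nt, 5′ bases missing: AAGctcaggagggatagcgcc

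In the RefSeq copy of the TAIR10 assembly, the build that the authors name, the 19 nt miR158 form without its last base matched a single place, the MIR158a gene on the minus strand of chromosome 3, at chr3:3366350-3366368. The form that began with CCCC matched only MIR158b, on the plus strand at chr1:20772273-20772291. The 19 nt miR8175 form matched the annotated MIR8175 gene at chr2:3740939-3740957 on the plus strand, and its deposited number of genome matches was 5. The 19 nt miR163 form matched MIR163 at chr1:24884359-24884377 on the plus strand and 2 further places without annotation on that strand. The 18 nt miR396 form matched MIR396a on the minus strand at chr2:4142443-4142460.

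Some properties of the libraries bear on all results. The libraries held 753927 to 3034481 miRNA reads for total RNA and 10835770 to 20317660 for AGO1. The lowest value listed in a run was 15, so a sequence listed at 0 could have had up to 28 reads in a library. This corresponds to 9.23 to 37.1 reads per 1000000 miRNA reads (CPM) in total libraries but only 1.38 to 2.58 CPM in AGO1 libraries, so weak sequences were listed more readily in AGO1 libraries. The library kit for total RNA was not the protocol used for AGO1-bound RNA, so library type and preparation cannot be told apart. miRNAs made up 2.53 to 2.76% of genome-matched reads in the untreated total libraries, 5.33 to 13.2% in the other 6 total libraries and 77.8 to 83.4% in AGO1 libraries. As a check of the immunoprecipitation, the miR390 family, a partner of AGO7, averaged 150315 CPM in total and 238 CPM in AGO1 libraries, and miR166 averaged 165581 and 589846 CPM.

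The 18 and 19 nt sequences were a small part of the miRNA reads. They took 1.44, 1.41 and 4.69% of miRNA reads in the untreated total libraries, 1.07, 1.27 and 1.05% in the mock total libraries, and 0.316, 0.899 and 0.605% in the Alternaria total libraries. All 3 Alternaria libraries lay below all 6 other total libraries, and replicate 3 of the untreated total group stood apart from the other two. Without miR8175, or without miR158, the Alternaria and mock total values overlapped. As a share of genome-matched reads, the means were 0.0659% in untreated, 0.0951% in mock and 0.0595% in Alternaria total libraries. In AGO1 libraries the share was 4.68, 3.26 and 1.83% for untreated, 1.65, 3.06 and 2.07% for mock, and 1.56, 1.78 and 1.56% for Alternaria leaves, with values of Alternaria and mock leaves that overlapped. These shares sum over chosen sequences and are given as a description, without a test.

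**Figure D1:**
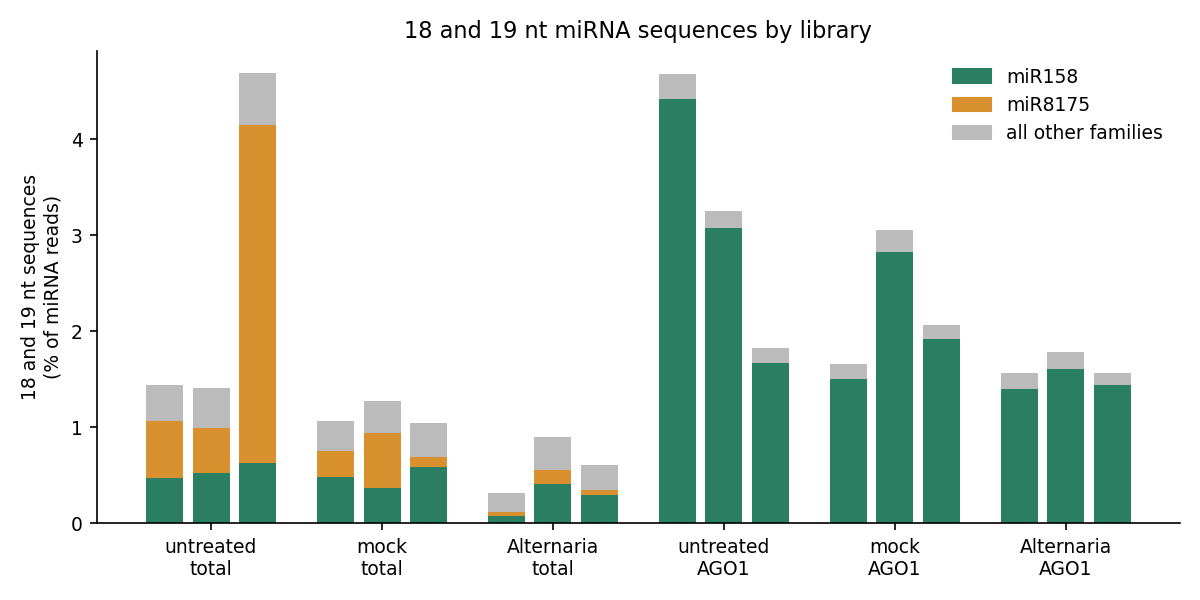
Share of miRNA reads in 18 and 19 nt sequences (%) in each of the 18 libraries, 1 bar per replicate in the order 1 to 3, divided into miR158, miR8175 and all other families. miR158 fills most of each AGO1 bar, and miR8175 is seen in total bars only, reaching 3.52% in untreated replicate 3.

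A few sequences made up most of these reads, and they differed between the library types. The 3 most abundant short sequences held 74.5% of the summed mean CPM in total libraries. The 19 nt miR8175 form was the first of them, at 3856, 3073 and 29141 CPM in untreated, 1930, 4550 and 652 CPM in mock and 296, 942 and 163 CPM in Alternaria total libraries, and it was listed at 0 in all 9 AGO1 libraries. Its level in untreated replicate 3 was the high value behind that library's share. The 19 nt miR158 form held 90.2% of the summed mean CPM of all short sequences in AGO1 libraries. It reached 43427, 30115 and 16188 CPM in untreated, 14573, 27598 and 18632 CPM in mock and 13534, 15563 and 13925 CPM in Alternaria AGO1 libraries, all above its highest total library, 6164 CPM.

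Among the 12 most abundant short forms of total libraries were also 19 nt forms of miR167, which targets auxin response factors 6 and 8 (lowest, median and highest library 247, 462 and 605 CPM), miR398, which targets copper/zinc superoxide dismutases (85.4, 222 and 365 CPM), and miR159, which targets MYB33 and MYB65 (176, 215 and 274 CPM). The others were the 18 nt sequence shared by miR5139 and miR8155 (mean 250.1 CPM) and 19 nt forms of miR166, miR160, miR403, miR396 and miR6478 (means of 143 to 211 CPM). In AGO1 libraries the next were the 19 nt miR166 form (273, 342 and 941 CPM; miR166 targets class III homeodomain leucine zipper genes), the 18 nt miR158 form without 2 bases at its 3′ end (148, 200 and 287 CPM) and a 19 nt form shared by miR156 and miR157 (109, 215 and 260 CPM), which target SPL transcription factors. In all, 53 short sequences averaged 10 CPM or more in total and 29 in AGO1 libraries, while 34 were listed at 0 in all total and 70 in all AGO1 libraries. Of the 144, 40 were listed in both library types.

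Each short form was placed within the most abundant sequence of its family where that held it (87 sequences) or within another sequence of the family of 20 nt or more (45). Another 7 were themselves the most abundant sequence of their family, and 5 were contained in no longer one. Of the 132 placed, 70 lacked bases at the 3′ end only, 44 at the 5′ end only and 18 at both ends. The 70 kept the seed of the longer sequence and the other 62 had a shifted seed. Loss of 2 bases was the most frequent kind at the 3′ end (33 sequences) and at the 5′ end (24 sequences).

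Forms shortened at the 3′ end were listed in similar numbers in both library types, and forms shortened at the 5′ end in smaller numbers in AGO1 libraries. Among the 70 that lacked 3′ bases only, 51 were listed in a total and 48 in an AGO1 library. Among the 44 that lacked 5′ bases only, 36 were listed in a total and 16 in an AGO1 library, although the listing limit was lower there. The 44 include forms of miR4995, miR8175 and miR390, families without any short form listed in AGO1 libraries. The first base differed along with the missing end: 50 of the 70 began with T, against 4 of the 44. Within the 3′-shortened forms, 44 of the 50 that began with T but 4 of the 20 that did not were listed in an AGO1 library, against 32 and 19 in total libraries. Among the 40 5′-shortened forms without a first T, 15 were listed in an AGO1 library. Missing end and first base therefore move together, and their separate parts were not tested.

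**Figure D2:**
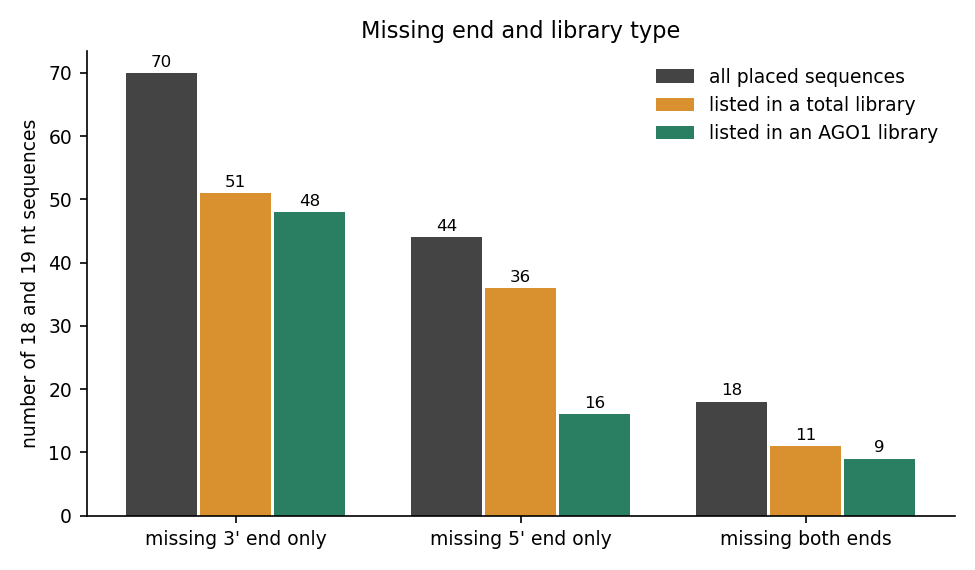
Number of 18 and 19 nt sequences by the end at which bases are missing, for all placed sequences and for those listed in at least 1 total or AGO1 library. Bars for 3′-shortened forms are near each other in both library types (51 and 48), and the AGO1 bar of 5′-shortened forms is lower (16 against 36).

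In reads, forms shortened at the 3′ end held 97.99% of the summed mean CPM of placed short forms in AGO1 libraries and 48.7% in total libraries, where miR8175 filled most of the rest. These values rest on few forms: without miR8175 and the 19 nt miR158 form without its last base, a choice made after the values were seen, forms shortened at the 3′ end held 79.4% in AGO1 and 80.6% in total libraries. Without miR8175, the 42 other 5′-shortened forms summed to 294, 479 and 727 CPM (lowest, median and highest library) in total and 337, 403 and 467 CPM in AGO1 libraries, which overlapped. By reads, 96.7 to 98.7% of short sequences in AGO1 libraries began with T, and 30.3 to 84.1% in total libraries; for sequences of 20 nt or more the ranges were 99.8 to 99.9% and 73.7 to 85.7%. The value in AGO1 libraries rests mainly on the 19 nt miR158 form, which begins with T.

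Some of the short sequences lay outside annotated miRNA genes. No annotated MIR locus was matched by 18 of the 144 (12.5%), of which 13 matched ribosomal RNA, 2 tRNA and 1 a small nucleolar RNA, against 6 of the 332 longer sequences (1.81%). The families concerned carry names given in other plants, such as miR4995, all of whose 7 short forms were listed in total libraries and none in AGO1 libraries. Its 18 nt form and that of miR5368 matched the plastid 23S ribosomal RNA. Members without a MIR locus held 0.0241 to 0.310% of miRNA reads in total libraries and at most 0.00288% in AGO1 libraries. These values leave out miR8175, which was counted with the MIR loci because it matched the annotated MIR8175 gene. Its short forms held 0.0509 to 3.52% of miRNA reads in total libraries and were listed at 0 in AGO1 libraries. Whether miR8175 is a true miRNA was not tested.

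AGO1-bound and total RNA were compared first sequence by sequence, on log2(CPM + 1) after scaling by trimmed means (TMM), with limma over all 387 sequences listed in 3 or more libraries and Benjamini-Hochberg adjustment. Of the 99 short sequences tested, 46 were higher in AGO1 libraries (46.5%, where 42.1% of all sequences were called higher) and 40 were lower (40.4%, against 44.4% of all). The median log2 difference was 0.63 for the short and −0.15 for all sequences tested. Of the 46 higher, 20 were listed in AGO1 libraries only, and of the 40 lower, 34 in total libraries only. Both shares lay near those of all sequences tested. Of the 99, 30 lacked 5′ bases only (13 higher, 13 lower) and 51 lacked 3′ bases only (28 higher, 17 lower). With the filter for sequences listed in at least 3 libraries of each type, chosen after the values were seen, 19 of 30 were higher and 6 lower, against 46.7 and 32.6% of all 184 tested. Under this filter 6 of 7 forms that lacked 5′ bases only were higher and 0 lower. Of 22 that lacked 3′ bases only, 13 were higher and 6 lower. With values under 37.1 CPM, the highest listing limit of a total library, set to 0 in every library, the balance turned: 10 short sequences were higher and 19 lower, with 44 higher and 138 lower among all 209 tested. The fitted differences depend on the scaling: the median of all sequences was −1.27 on miRNA read totals alone and 1.18 on genome-matched reads.

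**Figure D3:**
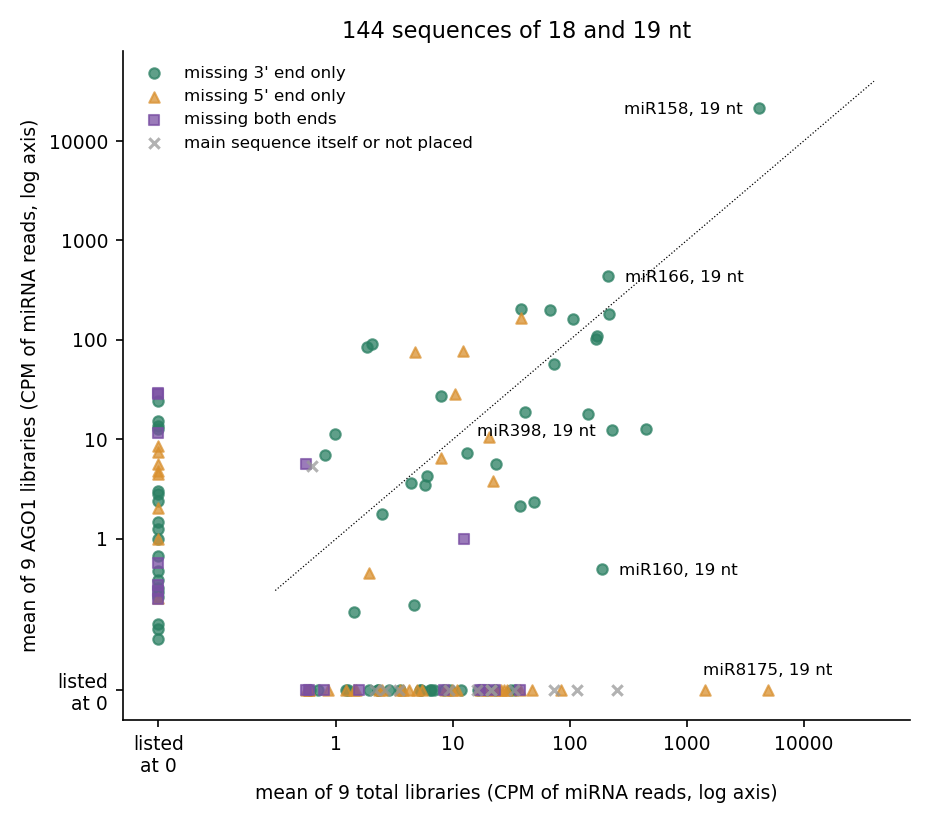
Mean level of each of the 144 sequences in 9 total libraries (x axis) and 9 AGO1 libraries (y axis), in CPM of miRNA reads on log axes with sequences listed at 0 set at the margin; symbols give the missing end and the dotted line marks equal CPM. The 19 nt miR158 form stands above all others in AGO1, at 21506 CPM, and both abundant miR8175 forms lie on the lower margin.

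miR158, an abundant family of Brassicaceae leaves, supplied 3 of the 10 short forms with the largest called rise in AGO1 libraries among those of at least 10 CPM. The MIR158b form without its last base was listed at 54.4, 70.3 and 157 CPM (lowest, median, highest) in AGO1 libraries and in 2 of 9 total libraries, at 7.58 and 8.77 CPM, with a log2 difference of 6.66 ± 0.41 (SE; limma adjusted p = 2.69e-10). The forms that lacked 5′ bases followed: the 19 nt form that began with CCCAAATG reached 62.4, 77.0 and 94.4 CPM in AGO1 and 0, 11.3 and 29.3 CPM in total libraries, with a log2 difference of 4.91 ± 0.47 (limma adjusted p = 7.88e-08). Neither overlapped between library types. The size of both log2 differences rests partly on total libraries that listed the form at 0, where up to 37.1 CPM could be hidden. The 18 nt form without 2 bases at its 3′ end differed by 4.56 ± 0.46 (limma adjusted p = 1.55e-07). All 7 short miR158 sequences were listed in AGO1 libraries, although only 2 of them begin with T.

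Forms of other families rose as well. The 18 nt miR166 form without 3 bases at its 3′ end was listed at 62.9, 76.2 and 164 CPM in AGO1 libraries and in 2 total libraries, at 4.99 and 13.2 CPM, and it rose by 6.76 ± 0.42 (limma adjusted p = 3.10e-10). The 18 nt form of miR396, a regulator of growth-regulating factors, lacks 3 bases at its 5′ end and begins with C. It was listed at 35.8, 77.9 and 122 CPM in AGO1 libraries and at up to 15.4 CPM in total libraries (log2 difference 5.83 ± 0.43, limma adjusted p = 2.93e-09). The listed values did not overlap, but a total library that listed it at 0 could hold up to 37.1 CPM. The size of this difference and of that of the 18 nt miR166 form is therefore uncertain, although both calls held with the common limit. Both short forms from the 3′ arm of miR408, a copper-responsive miRNA that targets plantacyanin and laccases, were listed in AGO1 libraries only: the 18 nt form at 10.9, 26.1 and 60.2 CPM and the 19 nt form at 11.8, 25.5 and 50.9 CPM. Both drop the first A of the longer sequence and begin with T. Also listed in AGO1 libraries only were an 18 nt miR163 form at up to 46.3 CPM and 19 nt forms of miR161 and miR850 at up to 18.8 and 28.7 CPM. Most of these AGO1 values lie within or below the range of the listing limits of total libraries, 9.23 to 37.1 CPM, so no fold is given for the 5 forms. With the common limit of 37.1 CPM the 18 nt miR408 form lost its call (limma adjusted p = 0.0508) and the other 4 could not be tested.

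Among the forms with the largest called fall in AGO1 libraries, 5 came from miR8175, miR5139, miR8155 and miR6173, each listed at 0 in AGO1 libraries. The 19 nt form of miR160, which targets auxin response factors 10, 16 and 17, was listed at 79.8, 189 and 296 CPM in total libraries but in 3 of 9 AGO1 libraries, at no more than 2.56 CPM, although it begins with T (log2 difference −6.00 ± 0.33, limma adjusted p = 6.97e-11). The 5′-shortened forms of miR168, which targets AGO1 itself, and of miR390 began with G or C and were listed at 0 in AGO1 libraries. The miR168 form was listed at 28.4, 48.6 and 65.8 CPM in total libraries (−4.75 ± 0.17, limma adjusted p = 2.40e-13) and the 18 nt miR390 form at 25.5, 31.7 and 54.2 CPM (−4.38 ± 0.20, limma adjusted p = 5.51e-12). The 19 nt miR390 form (−4.04 ± 0.17) and a 19 nt form of miR319 (−3.85 ± 0.54), both also listed at 0 in AGO1 libraries, completed the list. The miR168, miR390 and miR319 forms and the 5 named first met the filter only through total libraries. Their log2 differences and p-values therefore rest on AGO1 values of 0, where up to 2.58 CPM could be hidden. With the common limit the 18 nt miR390 form lost its call (limma adjusted p = 0.102) and the 19 nt miR390 form could not be tested.

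Setting each short form against the most abundant sequence of its family removes the change of the family as a whole. In this fit 50 of 92 short sequences were higher relative to the main sequence in AGO1 libraries, where 42.2% of all 296 sequences tested were called higher, and 22 were lower, against 37.8% of all. Of the 50, however, 22 were listed at 0 in all AGO1 libraries, so that their ratio rose through the fall of the main sequence alone. The 10 largest rises among forms of at least 10 CPM include 5 such forms, from miR8175, miR164 and miR390. The other 5 were both miR408 forms named above, both miR163 forms (5.27 on the log2 scale for that of 19 nt) and the miR6478 form. The main miR6478 sequence was listed at 0 in AGO1 libraries, and the main miR408 sequence lies in the other arm of the hairpin. For miR408 the ratio therefore joins a difference between the arms with any shortening. Against the longer sequence of their own arm the 18 and 19 nt miR408 forms averaged 47.2 and 46.2% in AGO1 libraries and were listed at 0 in total libraries. The 18 nt miR163 form was also listed at 0 in all total libraries. These miR408 and miR163 forms met the filter only through AGO1 libraries, so no size is given for their rise. With the common limit the 19 nt miR408 form and both miR163 forms could not be tested. Under the common limit 18 short sequences were higher and 7 lower, and the number of lower ones was 37 with a pseudocount of 10 CPM and 39 without the filter. The set tested changes with the limit and the filter, and the shares of all sequences called are not given. These counts are therefore not set against a background. Where the short form and the main sequence were each listed in at least 3 libraries of both types, a filter chosen after the values were seen, 10 of 29 short sequences were higher (34.5%, against 37.2% of all) and 9 were lower (31.0%, against 38.0% of all). Both shares lay near the background.

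Of the 10 that were relatively more abundant in AGO1 libraries, 4 were miR158 forms. The 19 nt form without its last base was present at 8.86, 8.04 and 8.27% of the 20 nt sequence in untreated, 7.0, 8.34 and 7.12% in mock and 1.03, 5.6 and 2.66% in Alternaria total libraries. In AGO1 libraries the values were 22.5, 17.0 and 10.2%, 11.6, 16.7 and 12.5%, and 8.14, 8.73 and 9.51% in the same order. Within each treatment every AGO1 library lay above every total library, and the log2 difference of the ratio was 1.19 ± 0.27 (limma adjusted p = 0.000925). The 2 forms without 5′ bases rose too: that of 18 nt averaged 0.0525% of the 20 nt sequence in total and 0.102% in AGO1 libraries, and that of 19 nt 0.0160 and 0.0481%. Both also matched MIR158b, so their ratio to the MIR158a sequence joins any change of MIR158b with shortening. The remaining 6 were forms of miR159, miR162, miR156 and miR157, miR163, miR167 and miR396. The 19 nt miR167 form fell in level but rose against its 21 nt sequence, from 1.56, 2.23 and 3.53% in total to 4.34, 6.18 and 15.4% in AGO1 libraries, which did not overlap.

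The fall against the main sequence was largest for miR398. Its 19 nt form without 2 bases at the 3′ end was present at 11.7, 13.8 and 15.7% (lowest, median, highest) of the 21 nt sequence in total libraries and at 0.0565, 0.0807 and 0.108% in AGO1 libraries, a log2 difference of −7.36 ± 0.14 (limma adjusted p = 5.12e-16). The 21 nt sequence itself averaged 1655 CPM in total and 15922 CPM in AGO1 libraries, and the 19 nt form 230 and 12.4 CPM. The 19 nt miR160 form went from 3.42, 11.5 and 23.2% in total to at most 6.65% in AGO1 libraries, with 6 of 9 AGO1 libraries at 0 (log2 difference −2.43 ± 0.46, limma adjusted p = 0.000203). With a pseudocount of 10 CPM this difference turned to 0.14. The 19 nt forms of miR822 (−3.12) and miR396 (−1.77), a second miR398 form (−6.08), and forms of miR156, miR157 and miR319 (−5.40 to −1.58) also fell. The second miR398 form and the miR157 and miR319 forms lie in the arm opposite to their main sequence. Their ratios therefore join a difference between the arms with any shortening. The 19 nt miR166 form was 0.183% of its 21 nt sequence in total and 0.0857% in AGO1 libraries, so forms that lacked 3′ bases only were found on both sides, with 7 higher and 7 lower among the 21 listed in both library types. Of the 7 forms listed in both that lacked 5′ bases only, 3 were higher and 1 lower.

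**Figure D4:**
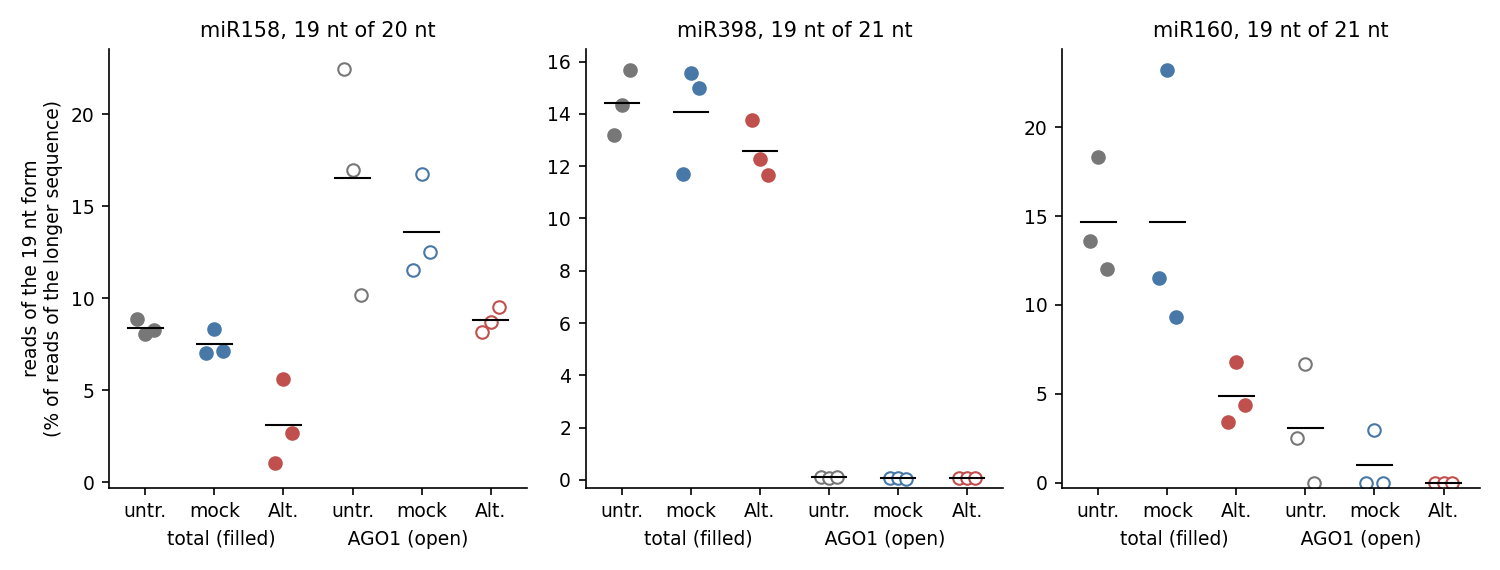
Reads of the 19 nt forms of miR158, miR398 and miR160 as a percentage of the reads of the longer sequence that holds them, by group; each point is a library, filled for total and open for AGO1, and lines are means of 3 libraries. The miR158 form is higher in AGO1 within each treatment, whereas the miR398 form lies at 11.7 to 15.7% in total and at or below 0.108% in AGO1 libraries.

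As a share of the whole family, the short forms ranged widely. Of 32 families with at least 1000 reads that were listed in all 18 libraries, the mean share was higher in AGO1 libraries in 21 and in total libraries in 11, with a median of 0.392% in AGO1 and 0.228% in total libraries. AGO1 libraries lay above every total library in 7 families (miR162, miR165, miR396, miR408, miR6478, miR824 and miR850) and below every total library in 3 (miR390, miR398 and miR822). With the common limit of 37.1 CPM, however, the mean share was higher in AGO1 libraries in 8 families and AGO1 libraries lay above every total library in 2. Fewer families were then listed in all 18 libraries, and some, such as miR161 and miR165, kept no short form in either library type. The 8 can therefore not be set against the 21 of 32. For miR408 the share also compares arms, since its main sequence and its AGO1 short forms come from opposite arms. Short forms held a large part of miR408 (12.3, 16.2 and 26% in AGO1, at most 0.477% in total libraries), of miR824 (6.79, 14.2 and 25.6%, listed at 0 in total libraries), and of miR158 (7.75, 10.6 and 18.5%, against 1.11, 6.77 and 8.19%). For miR163, whose main sequence has 24 nt, the share was 10.8, 14.7 and 24.6% in AGO1 libraries and up to 0.448% in the 8 total libraries that listed the family. On the other side stood miR398 (6.07, 8.55 and 10.1% in total, 0.0564 to 0.181% in AGO1), miR160 (2.35, 6.39 and 10.9% in total, 0 to 4.93% in AGO1), miR822 (1.5, 3.41 and 4.45% in total, 0 to 0.758% in AGO1) and miR169 (0 to 11.3% in total, listed at 0 in AGO1). In families not listed in AGO1 libraries the share was higher still: 24.1, 34.4 and 60.8% for miR8175, 14.4, 48.7 and 53.5% for miR6173, 68.1 to 100% for miR4995 and 100% for miR5139 and miR8155. For miR6478, which matches tRNA, it was 4.91, 7.43 and 11.7% in total and 100% in AGO1 libraries. Smaller shares in AGO1 libraries were those of miR775 (2.75, 3.48 and 15.6%, against a mean of 3.10% in total libraries), miR781 (0 to 11.2%) and miR850 (1.98, 2.96 and 6.45%).

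**Figure D5:**
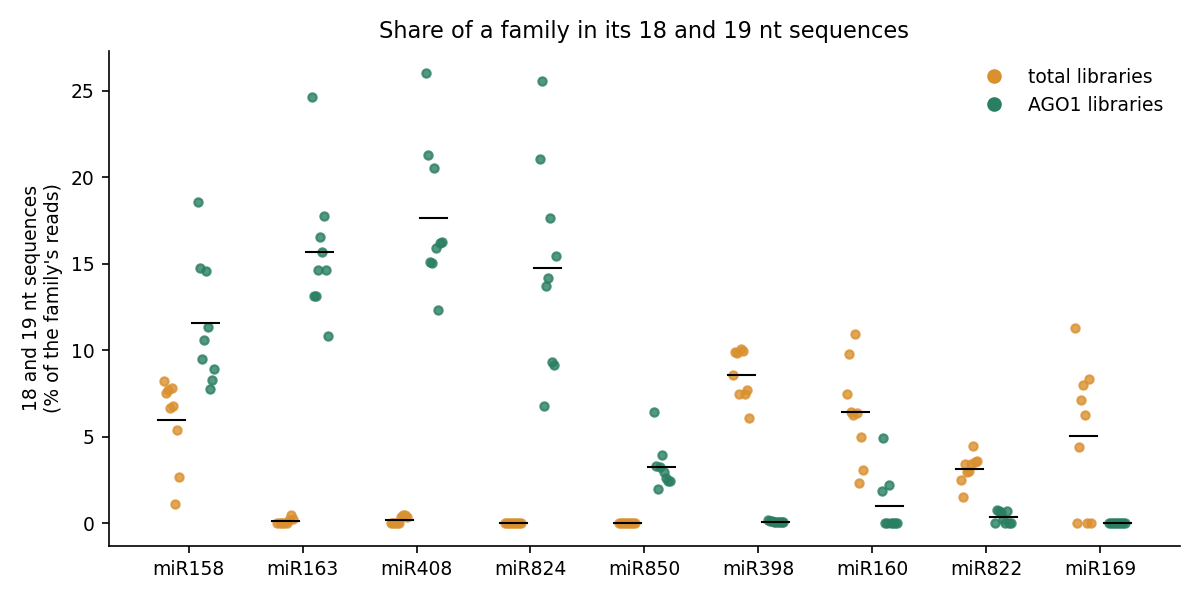
Share of a family's reads in its 18 and 19 nt sequences (%) for 9 families; each point is a library and lines are means over the libraries that listed the family. Short forms of miR158, miR163, miR408, miR824 and miR850 hold the larger share in AGO1 libraries, and those of miR398, miR160, miR822 and miR169 in total libraries.

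The families with most short forms varied in which end was missing. miR156 had 11 short sequences, 5 without 3′ bases, 4 without 5′ bases and 2 without either, and they summed to 197 CPM in total and 238 CPM in AGO1 libraries. miR161, which targets pentatricopeptide repeat genes, had 9, of which 5 were listed in total and 8 in AGO1 libraries, yet they summed to only 22.4 and 28.4 CPM. miR396 also had 9, dominated by a 19 nt form without 2 bases at its 3′ end at 165 CPM in total and 101 CPM in AGO1 libraries. miR157 and miR166 had 8 each, and the miR166 forms summed to 233 and 586 CPM. Of the 7 short forms of miR168, 5 were listed in total and 2 in AGO1 libraries. None of the 5 of miR390 was listed in AGO1 libraries.

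Infection was compared with mock treatment within each library type, by limma over 303 sequences in total and 267 in AGO1 libraries. None of the 69 short sequences tested in total libraries and none of the 59 in AGO1 libraries passed an adjusted p of 0.05, where 0.66% of all sequences in total libraries were called in each direction and 1.12% higher and 0.749% lower in AGO1 libraries. At an unadjusted p under 0.05, 4 short sequences were higher and 8 lower in total libraries, and 2 and 5 in AGO1 libraries; limma-voom called 2 higher and 1 lower in total and none in AGO1 libraries. Between mock and untreated leaves limma called no short sequence in either library type (0% of all sequences called), with 2 higher and 10 lower at an unadjusted p under 0.05 in total and 2 and 2 in AGO1 libraries. In total libraries limma-voom and a pseudocount of 10 CPM each called 7 lower, and scaling on genome-matched reads gave 15 higher and 1 lower. That scaling shifts all sequences of a library together, so its counts are not read as particular to short sequences.

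Among the forms nearest to the threshold were the 18 nt miR5368 form, which matches plastid ribosomal RNA (limma adjusted p = 0.0506 in total libraries), and both miR163 forms. miR163 targets genes of SAMT-type methyltransferases. Its 19 nt form was listed at 11.9, 34.1 and 25.3 CPM in Alternaria total libraries and at 0 in all mock and untreated total libraries, with a limma adjusted p = 0.0528 against mock and a limma adjusted p = 0.0151 against untreated leaves. In total libraries this form met the filter of 3 libraries only through the Alternaria libraries, with values near the listing limit. These p-values are therefore no firm support for a rise. In AGO1 libraries it reached 57.6, 52.5 and 22.3 CPM after Alternaria, 9.91, 20.6 and 21.5 CPM in mock and 26.5, 16.9 and 17.4 CPM in untreated leaves, and the Alternaria values lay above all mock values (log2 difference 1.35 ± 0.37, limma adjusted p = 0.0769). The 18 nt form, at 46.3, 43.8 and 21.3 CPM against 10.5, 19.1 and 18.9 CPM in mock, gave 1.21 ± 0.32 (limma adjusted p = 0.0695). The 24 nt sequence was listed at 5980, 10857 and 19092 CPM after Alternaria and at 2822, 1086 and 1622 CPM in mock total libraries, without overlap.

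Alternaria and untreated leaves differed most in total libraries, where 4 short sequences were higher (11.6% of all sequences tested were) and 10 were lower (7.92% of all). Of the 10 lower, 8 matched no MIR locus: 3 forms of miR4995 and 1 of miR5368, all listed at 0 after Alternaria, and forms of miR6173, miR6478 and the shared sequence of miR5139 and miR8155. The miR5368 form was listed at 91.5, 19.9 and 434 CPM in untreated leaves (log2 difference −6.56 ± 1.27, limma adjusted p = 0.00483), a call that was lost with the common limit (limma adjusted p = 0.17). The 18 nt miR8175 form fell from 2062, 1592 and 5872 CPM to 219, 443 and 346 CPM (−3.01 ± 0.56, limma adjusted p = 0.00483). Its call was lost with the replicate number as a block (limma adjusted p = 0.0685). The 19 nt miR166 form fell from 293, 300 and 272 CPM to 33.8, 169 and 79.8 CPM (−1.85 ± 0.45, limma adjusted p = 0.0126), a call that was lost on genome-matched reads, with the common limit and without untreated replicate 1 (limma adjusted p up to 0.913). The 4 that were higher, forms of miR163, miR399, miR408 and miR166, were listed at 0 in all untreated total libraries, whose listing limit was 15.3 to 37.1 CPM against 9.31 to 16.6 CPM after Alternaria. With values under 37.1 CPM set to 0 in every library, none of these 4 could be tested, and 7 short sequences were lower. Leaving out untreated replicate 2 or 3 or any of the 3 Alternaria libraries left none higher. The miR163 and miR399 forms met the filter of 3 libraries only through the Alternaria libraries, and could not be tested without any 1 of these. The share of miRNAs among genome-matched reads, given above, moves with this contrast. Scaling on genome-matched reads shifts all sequences of a library together. It gave 20 short sequences higher and 6 lower, counts that are not read as particular to short sequences. The calls of the 19 nt miR166 form, both miR6173 forms, the sequence shared by miR5139 and miR8155 and the miR6478 form were lost with it, the last with a log2 difference of 0.19.

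In AGO1 libraries 1 short sequence passed between Alternaria and untreated leaves (1.69% of 59, where 1.87% of all were lower), and none was higher (1.12% of all). It was the 18 nt miR408 form, at 13.1, 17.6 and 10.9 CPM after Alternaria and 60.2, 40.0 and 28.7 CPM in untreated leaves (log2 difference −1.51 ± 0.35, limma adjusted p = 0.0278). It no longer passed with limma-voom, with the common limit of 37.1 CPM, or without untreated replicate 2, Alternaria replicate 1 or Alternaria replicate 2. Without untreated replicate 3, 5 short sequences were higher and 11 lower. The share of all sequences called in that fit is not given, so these counts only describe how the result depends on that library.

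The difference between Alternaria and mock leaves was compared between the library types by an interaction term. Of 99 short sequences 1 was called higher and 1 lower, where 0.775% of all 387 sequences were called each way. Both, forms of miR5368 and miR399, were listed at 0 in every AGO1 library.

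Relative to its 20 nt sequence, the 19 nt miR158 form was lower after Alternaria in both library types, as the values above show. It averaged 3.10 ± 2.32% (SD, n = 3) in Alternaria and 7.49 ± 0.744% in mock total libraries, and 8.80 ± 0.687% and 13.6 ± 2.75% in AGO1 libraries, without overlap in either. An exact two-sided permutation test gave p = 0.1 for each, the smallest that 3 against 3 libraries allow, and this form was singled out after its values were seen. Over all short forms listed with their main sequence in every library of a type, the 3 Alternaria libraries lay below all mock and untreated libraries for 3 of 21 in total (14.3%, and 14.2% of all such sequences, while 7.96% of all and 1 of the 21, a 19 nt miR822 form, lay above) and for 4 of 41 in AGO1 libraries (9.76%, and 8.76% of all, while 0.73% of all and none of the 41 lay above). Those shares are close to the background. The 3 in total libraries were the 19 nt forms of miR158, miR166 and miR160, and those of miR158 and miR166 were also among the 4 in AGO1 libraries.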

How the data were processed

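The authors' deposited table gives whole read numbers of each mature sequence in each sequencing run. Per the file headers, it was made with miRProf from genome-matched reads of 16 to 28 nt without mismatches. Other deposited tables, the authors' comparisons of whole families, were not used here. The submitters' processing notes name FastQC, cutadapt, DESeq 1.2, DESeq2 and the TAIR10 build. Because family lines without numbers stand between the sequences, its unit was recorded as other than counts, and limma took the place of a count model.

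The 2 runs of a library were summed and each distinct sequence was counted once. Sequences were matched exactly to the RefSeq copy of TAIR10, and 134 of 144 short sequences had the deposited number of matches. For testing, limma 3.58.1 (run under R 4.3.3) was applied to log2(CPM + 1) values after scaling with TMM factors (trims 0.3 and 0.05), a trend and robust moderation, for sequences listed in at least 3 libraries, with Benjamini-Hochberg adjustment over all of them at 0.05; the method was tested on simulated data. The fit relative to the main sequence (highest mean CPM over 18 libraries) had no trend. Total and AGO1 libraries were fitted apart for treatments. Tables used Python 3.11.15 and pandas 2.3.3.

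Alternatives were other scalings, limma-voom, a pseudocount of 10, no filter, a common limit of 37.1 CPM, the replicate number as a block, main sequences by pooled reads, and each library left out. Named sequences were the 12 most abundant per library type, called sequences (up to 10 each way by p for treatments; up to 5 for the interaction; the largest of at least 10 CPM for AGO1 against total), families with most short forms, and the 8 families of at least 1000 reads with the highest share per library type. The members, lists and tests were chosen with earlier results of these data known. Per the labels, each treatment had 3 biological replicates, without saying what a replicate pooled.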

Additional observations from a re-analysis of the deposited data

Results flagged for a closer look

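For 2 short sequences the difference between Alternaria and mock leaves differed between AGO1 and total libraries in the limma interaction test. They are 1.01% of the 99 tested in each direction, where 0.775% of all sequences were called each way. The 19 nt miR399 form, from a family that controls phosphate uptake, had an interaction of −3.49 ± 0.50 (log2; limma adjusted p = 0.000831). It was listed at 9.48, 31.8 and 20.6 CPM in Alternaria total libraries and at 0 in every other library, so the difference rests on values near the listing limit. It met the filter of 3 libraries only through these libraries. It could not be tested without Alternaria total replicate 1, 2 or 3 or with the common limit. The 22 alternatives that tested it kept the call, but none of them took these values away, so they are no separate support. The 18 nt miR5368 form, which matches plastid ribosomal RNA, had an interaction of 4.36 ± 1.03 (limma adjusted p = 0.0490). It was listed at 46.5, 41.2 and 20.8 CPM in mock total libraries and at 0 in Alternaria total and all AGO1 libraries, and 19 of 26 alternatives lost the call.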

How the results depend on the processing

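Of 466 alternatives to counts and group means, 371 stayed within 1.5 times the main count, or 1 SD of a mean, and 95 did not; of 1267 alternatives to 57 values of named sequences, 1194 kept direction and call, 71 kept only the direction and 2 reversed. The reversed ones were the 19 nt miR6478 form between Alternaria and untreated total libraries (0.19 on genome-matched reads) and the 19 nt miR160 form relative to its main sequence (0.14 with a pseudocount of 10 CPM). The cause of a change was not tested unless a sentence says otherwise. The counts below are of short sequences, without the share of all sequences called in each setting, and describe only how the main counts depend on the processing. Between Alternaria and mock total libraries limma-voom and the pseudocount gave 2 higher, and these as well as genome-matched reads, no filter and the replicate block gave 1 lower. Between Alternaria and untreated total libraries genome-matched reads gave 20 higher and 6 lower, and the common limit, with fewer sequences tested, 0 higher. Between mock and untreated total libraries genome-matched reads gave 15 higher and 1 lower, limma-voom and the pseudocount 7 lower each, and the replicate block 2 lower. In AGO1 libraries median-of-ratios factors gave 2 higher against mock and 3 against untreated leaves; against untreated, genome-matched reads gave 1 higher and 2 lower, no filter 2 lower, the replicate block 2 higher, and limma-voom and the common limit 0 lower. Between AGO1 and total libraries 10 were higher and 19 lower with the common limit, and 19 and 6 among sequences listed in both types. For the interaction limma-voom, the pseudocount, no filter, the common limit and the replicate block gave 0 higher; miRNA read totals gave 2 lower and the common limit 0. Relative to the main sequence the common limit gave 18 higher and 7 lower, sequences listed in both types 10 and 9, the pseudocount 37 lower and no filter 39 lower. Replicate numbers were not treated as pairs in the main fits. After removal of group means, same-numbered total and AGO1 libraries correlated at −0.06 to 0.04 (0 of 9 over 0.1), those within total libraries at −0.15 to 0.33 (2 of 9) and within AGO1 libraries at −0.13 to 0.22 (5 of 9). Libraries with different numbers were not correlated for reference, so these values cannot decide whether replicates were paired. As a share of genome-matched reads the short sequences took 0.0659% in untreated, 0.0951% in mock and 0.0595% in Alternaria total libraries and 1.31% in Alternaria AGO1 libraries. With families left out, a choice made after the data were seen, the mock total mean was 0.816% without miR8175 and 0.650% without miR158, and the AGO1 means without miR158 were 0.201% (untreated), 0.181% (mock) and 0.154% (Alternaria). With the common limit, and fewer families listed in all libraries, short forms had a higher mean share in AGO1 libraries in 8 families and lay above every total library in 2. Leaving out each library in turn gave 0 higher in each case and 0 to 5 lower for Alternaria against mock total (5 without Alternaria replicate 2, 2 without untreated replicate 3), 0 to 5 and 8 to 15 for Alternaria against untreated total (15 without Alternaria replicate 2), 0 to 1 and 0 to 4 for mock against untreated total (4 without mock replicate 1), 0 to 2 and 0 to 2 for Alternaria against mock AGO1, 0 to 5 and 0 to 11 against untreated AGO1 (5 and 11 without untreated replicate 3), 0 to 1 and 0 to 1 for mock against untreated AGO1, 44 to 47 and 36 to 43 for AGO1 against total, 0 to 3 and 0 to 3 for the interaction, and 47 to 51 and 20 to 23 relative to the main sequence. Mean shares ran from 1.42 to 3.07% (untreated total), 1.06 to 1.17% (mock total), 0.461 to 0.752% (Alternaria total), 2.54 to 3.97% (untreated AGO1), 1.86 to 2.56% (mock AGO1) and 1.56 to 1.67% (Alternaria AGO1); families with a higher mean in AGO1 libraries numbered 19 to 23, those above every total library 7 to 8 and those below 3 to 5. The listing limit sets what could be seen: below 9.23 to 37.1 CPM a sequence was invisible in total libraries, so forms listed only after AGO1 immunoprecipitation cannot be called absent from total RNA.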
